A study of Zea mays with 24 samples.

Results

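The introns described here are the intron retention (IR) events of maize leaf RNA whose intron was at most 100 bases long. They were chosen by type and length alone, as the rows of type IR in the deposited tables of alternative splicing (AS) in which the start of the downstream exon lay at most 100 bases after the end of the upstream exon. There were 1099 such introns among 3542 retained introns (31.0%) and 31439 AS events of 5 types listed at either stage. At stage V4, 970 of 3262 IR events and 22077 AS events were members, and at V5 1036 of 3405 and 28092. Of the members, 907 were listed at both stages, 63 at V4 alone and 129 at V5 alone. They lay in 950 genes.

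The plants were of the maize inbred line W22 and all 8 groups shared that genotype, the soil and the light cycle. They differed in the maximum daily temperature (MDT), with 31°C as the base and 33°C, 35°C and 37°C as the higher settings, and in stage, V4 at 20 days after germination (DAG) or V5 at 27 DAG. The chambers warmed every morning to the MDT and cooled at night to a fixed amount below it, so that plants at a higher MDT also had warmer nights. Each group had 3 libraries of poly(A) RNA, 1 for each of 3 biological replicates, taken midway along the newest fully expanded leaf. Every MDT was run in duplicate chambers, but no label names the chamber of a library, so effects of chamber and MDT cannot be told apart. The reads of W22 had been aligned to the genome of another line, B73, and all positions are 1-based in B73 RefGen_V4. That genome was not used here, so no sequence is shown.

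An intron is removed from the pre-mRNA by the spliceosome, which recognizes a 5′ splice site, a branch point and a 3′ splice site. In IR the whole intron stays in the mature RNA. Retained introns are common in plant transcripts. A retained intron whose length is a multiple of 3 keeps the downstream reading frame unless it holds a stop codon, whereas any other length shifts the frame. Transcripts with an early stop codon can be degraded by nonsense-mediated decay or be kept in the nucleus. SR proteins, which bind exons and introns through RNA recognition motifs and recruit the spliceosome through a domain rich in arginine and serine, influence which introns are removed, and plant SR genes are themselves alternatively spliced.

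The lengths of the members ran from 20 to 100 bases, with a median of 84 and quartiles of 75 and 92. Only 45 of the 1099 were shorter than 60 bases. Since reads of W22 were aligned to B73, a stretch that W22 lacks could be listed as a short intron. This was not tested. The lengths were not evenly spread over neighbouring values. Multiples of 3 made up 645 of the 1099 members (58.7%, Wilson 95% interval 55.8 to 61.6), against 33.3% if the 3 remainders were equally frequent, while 226 lengths left a remainder of 1 and 228 a remainder of 2. There were 63 introns of 78 bases beside 21 of 77 bases and 22 of 79 bases, and 75 of 93 bases beside 30 of 92 bases and 19 of 94 bases. The share of multiples of 3 was 57.8% below 60 bases, 64.7% at 60 to 69, 51.3% at 70 to 79, 56.2% at 80 to 89 and 65.0% at 90 to 100 bases. Among the longer retained introns it was 47.9% (44.5 to 51.3) up to 250 bases, 32.1% (29.5 to 34.7) above 250 and up to 1000 bases, and 32.6% (27.9 to 37.8) above 1000 bases. The interval of the members therefore lay above those of the 3 longer classes. The split by 3 was chosen after the lengths had been seen and is given without a test.

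**Figure D1:**
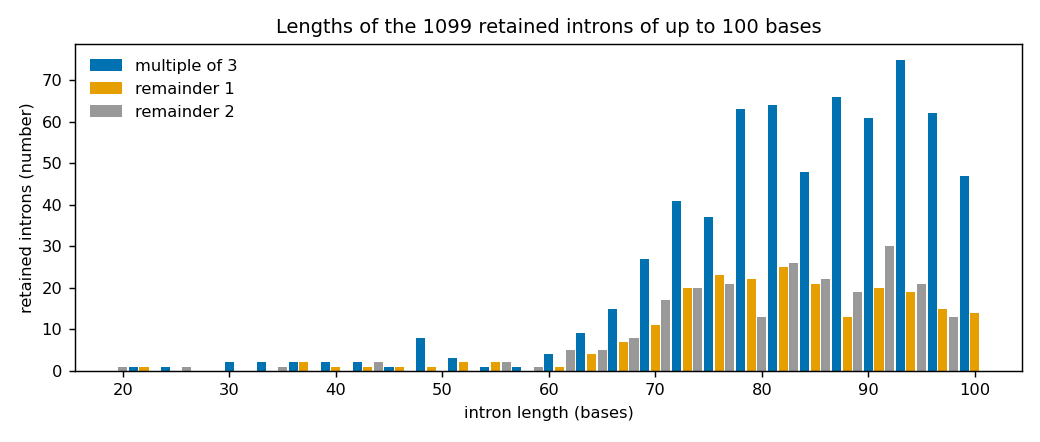
Number of retained introns (y axis) at each intron length in bases (x axis) for the 1099 members, coloured by the remainder of the length after division by 3. The bars at multiples of 3 stand above their neighbours over most of the range, as with 63 introns of 78 bases beside 21 of 77 and 22 of 79 bases.

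Of the 950 genes, 823 held 1 member, 108 held 2 and 19 held 3 or more. The members were spread over the 10 chromosomes, from 65 on chromosome 10 to 166 on chromosome 1, with 8 on other contigs, and 560 lay on the plus and 539 on the minus strand. They amounted to 1094 distinct introns, since 5 introns were listed with more than 1 pair of flanking exons. Zm00001d019792 had the most members, 5 introns of 43, 52, 81, 81 and 99 bases on 1 gene. Their retention differed widely within the gene: at V5 the 81-base intron that starts at position 62169116 of chromosome 7 had a median of 42.5% over 12 libraries (21.1 to 58.9), and the 99-base intron a median of 79.9% over 11 libraries (75 to 94.4). In Zm00001d040123, the only other gene with 4 members, the 69-base intron was retained at a median of 94.2% at V5 (91.3 to 98 over 12 libraries). Its 73-base intron was almost always removed, at a median of 0.3% (0.2 to 1.1 over 5 libraries), so that both extremes occurred in 1 gene.

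For every event and library the tables give inclusion reads, skipping reads and ψ, here an estimate of the percentage of transcripts that retained the intron. In all 3262 V4 and 3405 V5 IR events the reads and ψ fitted 1 rule, in which the skipping isoform had an effective length of 149 bases and the inclusion isoform 149 bases plus the intron. Reads inside the intron thus counted toward inclusion, and the ratio of the effective lengths was 1.13 for an intron of 20 bases, 1.56 for one of 84 bases and 1.67 for one of 100 bases. The labels describe single-end reads of 50 bases, which are shorter than 149 bases. The level of ψ depends on this rule. For members with a value in all 12 libraries, the median per library was 25.4 to 32.0% at V4 and 26.0 to 31.4% at V5. With an effective length of 49 bases, which reads of 50 bases would give, it was 16.6 to 21.3% and 16.7 to 20.4%. Which length holds was not settled, and all values of ψ below follow the 149-base rule unless another is named. Every listed value had at least 1 read of each isoform and other values were missing, so an intron that was always or never retained in a library had no value there.

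Missing values were therefore frequent among the members. At V4, 19.6% of the members had a value in all 12 libraries of the stage, against 45.6% of the longer retained introns, and at V5 22.6% against 50.3%. At V4 150 members and at V5 141 members had a value in 1 library alone. A library listed between 482 and 560 members at V4 and between 543 and 628 at V5, with 46164 to 110442 reads on them over the 24 libraries. The reads on all AS events ranged from 1682150 to 2818842 per library at V4 and from 2662780 to 3378578 at V5. The number of listed members differed between MDTs without overlap of the libraries in 3 of the 6 comparisons with 31°C. It was 548 ± 13.1 (SD, n = 3) at 35°C and 505 ± 8.08 at 31°C at V4, 623 ± 5.51 at 33°C and 577 ± 3.79 at 31°C at V5, and 558 ± 14.0 at 37°C at V5. The exact permutation test gave p = 0.1 in each of the 3, the smallest two-sided p that 3 against 3 libraries allow, and 0.2 after adjustment over the 6 comparisons. The listed longer introns were also more numerous without overlap at V4 35°C (1718 against 1675 at 31°C) and V5 33°C (1867 against 1762), whereas at V5 37°C they were 1788 against 1762, with overlap. The reads on all AS events moved the same way in each of the 3, at 2414853 to 2533748 per library at V4 35°C against 1682150 to 2286472 at 31°C, 3129380 to 3220211 at V5 33°C against 3021024 to 3097289 at 31°C, and 2662780 to 2985911 at V5 37°C, and their part in the numbers was not tested.

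Retention was split between introns that were nearly always removed and introns that were mostly retained. Among the 554 members with a value in at least 6 libraries and 10 reads at V5, the median of the mean ψ was 20.6%, with quartiles of 4.31% and 77.6%. Of these, 229 (41.3%) had a mean ψ under 10% and 87 (15.7%) one above 90%, whereas 24.99% of the 1781 longer introns were under 10% and 4.72% above 90%. At V4, 38.3% of the 478 members were under 10% and 14.6% above 90%, against 25.5% and 4.24% of 1626 longer introns. The introns above 100 and up to 250 bases were nearer to the members than longer introns as a whole, with 32.3% of 499 under 10% and 12.2% above 90% at V5, and 31.9% and 11.3% of 442 at V4.

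Members whose length was a multiple of 3 were retained less. The median of the mean ψ was 9.54% over 315 multiples of 3 and 39.7% over 239 other members at V5, and 10.9% over 267 and 41.8% over 211 at V4. Remainders of 1 and 2 gave similar medians, 37.6% and 42.2% at V5 and 41.8% and 40.2% at V4. A mean ψ under 10% was found for 51.4% of the multiples of 3 and 28.0% of the others at V5. The gap held in each length class from 70 bases up, with medians at V5 of 7.88% and 30.9% at 70 to 79 bases, 7.40% and 52.6% at 80 to 89 bases and 11.2% and 36.2% at 90 to 100 bases. At 60 to 69 bases it was turned around, with 61.6% over 31 multiples of 3 and 25.5% over 18 others. Among the longer introns the medians were 24.9% and 30.1%. Over the members with a value in all 12 libraries, the median was lower for the 120 multiples of 3 than for the 113 others in every V5 library, at 15.4 to 23.4% against 29.2 to 36.6%. At V4 the ranges of 24.7 to 32.6% over 100 and 27.2 to 36.1% over 89 introns overlapped. These splits were chosen after the data had been seen and are descriptions.

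**Figure D2:**
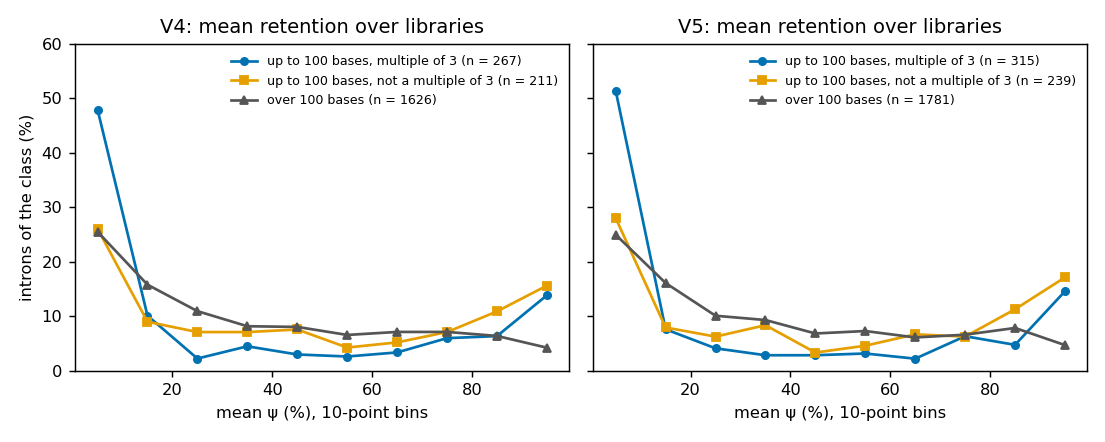
Percentage of introns of each class (y axis) by mean ψ in bins of 10 points (x axis) at V4 and V5, for introns with values in at least 6 libraries and a mean of at least 10 reads. Members with a length that is a multiple of 3 fall under 10% in 47.9% of cases at V4 and 51.4% at V5, beside 25.5% and 24.99% of the longer introns.

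Whether short introns were retained more than longer ones depended on which introns were counted. With a value in all 12 libraries and at least 10 reads, the median ψ per library was 25.4 to 32.0% over 189 members and 20.6 to 25.3% over 1044 longer introns at V4, and 26.0 to 31.4% over 233 and 20.7 to 22.8% over 1190 at V5. The members were higher by 7.17 ± 2.33 points at V4 and 6.34 ± 1.61 points at V5 (mean ± SD over 12 libraries), in 12 of 12 libraries at each stage. An exact sign-flip permutation test over the libraries gave p = 0.000488, the smallest that its 4096 flips can give, at both stages. All libraries of a stage measured the same introns, so this test covers the spread between libraries and not that between introns. It cannot decide whether short introns in general are retained more. The sign turned with the choice of introns. Over introns with a value in at least 6 libraries the members differed by −0.17 points at V4 (higher in 5 of 12 libraries) and −3.83 points at V5 (higher in 0 of 12), where the same exact test gave p = 0.764 and p = 0.000488. Without division by the effective lengths, the inclusion share of the reads was lower for the members by 18.1 points at V4 and 19.4 points at V5 in all 12 libraries, again with an exact p of 0.000488. In that share the reads along the whole length of a longer intron count in full.

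The level of a given member was much alike at both stages. At 31°C, 384 members had values in at least 2 libraries of each stage, and their mean ψ at V4 and V5 had a Pearson's r of 0.977 and a Spearman's rho of 0.968 across introns. The median absolute difference was 2.76 points and 10 of the 384 introns differed by over 20 points. A difference over 20 points was found for more introns at 33°C (26 of 381) and 35°C (24 of 387), and for 11 of 389 at 37°C. Pearson's r was 0.971 at 33°C, 0.967 at 35°C and 0.978 at 37°C. These are correlations across introns, which are not independent replicates and share the reference and the length rule. Within a group the 3 libraries differed by a median SD of 3.07 to 3.32 points at V5 and 3.78 to 3.97 points at V4, and 1 member in 10 had an SD above 9.93 to 13.0 points.

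The first question of the design was whether a higher MDT shifted the retention of short introns as a whole. The median ψ over the 189 members at V4 was 29.8 ± 1.82% (mean ± SD of 3 libraries) at 31°C, 27.4 ± 1.84% and 30.6 ± 1.27% at 33°C and 35°C, and 29.6 ± 1.76% at 37°C. Over the 233 members at V5 it was 28.0 ± 0.80%, 29.9 ± 1.42%, 28.3 ± 0.87% and 26.8 ± 0.76%. The libraries of each higher MDT overlapped those at 31°C in all 6 comparisons. The differences ran from −2.43 points (V4 33°C/31°C MDT) to 1.87 points (V5 33°C/31°C MDT), and exact permutation tests gave p between 0.2 and 1.0, or 0.6 to 1.0 after adjustment over the 6. With at least 20 reads the groups were apart at V4 33°C/31°C, V5 35°C/31°C and V5 37°C/31°C MDT, by −3.91, −2.23 and −1.70 points (p = 0.1 in each, the smallest possible, exact permutation test, 0.2 after adjustment). Single introns also moved both ways: the median change over the tested members lay between −0.25 and 0.13 points in every comparison, beside −0.27 to 0.25 points over all tested retained introns.

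Differential AS (DAS) was then tested for each intron with a quasi-binomial model of its inclusion and skipping reads. A DAS event was called at an adjusted p of at most 0.01, over retained introns of any length, and a difference of mean ψ above 5 points. At V5 35°C/31°C MDT, 16 of 430 tested members (3.72%) were called, beside 4.42% of all tested retained introns. Of these 8 were higher and 8 lower, beside 1.99% and 2.43% of all. At V5 37°C/31°C MDT it was 5 of 423 (1.18%), beside 2.03%, with 2 higher and 3 lower, beside 0.942% and 1.09%, and at V5 33°C/31°C MDT 0 of 457, beside 1.29%. At V4 there were 0 of 370 at 33°C/31°C MDT, beside 0.280%, and 1 of 387 (0.258%) at 35°C/31°C MDT, beside 1.56%. The latter was lower, beside 0.323% higher and 1.24% lower among all. At V4 37°C/31°C MDT there were 3 of 373 (0.804%), beside 2.20%, with 1 higher and 2 lower, beside 1.38% and 0.826%. Where none was called, 25 of 370 (V4) and 61 of 457 (V5) had an unadjusted p under 0.05, beside 12.3% and 18.4% of all, and edgeR called 0 and 2 and limma 0 and 0. At an adjusted p of at most 0.05 the members called were 1, 6 and 17 at V4, beside 1.12%, 2.58% and 6.89% of all, and 9, 33 and 23 at V5, beside 3.63%, 10.4% and 5.36%. At an adjusted p of at most 0.01 the members' share was below that of all retained introns in each comparison. At that threshold the Wilson intervals of members and longer introns overlapped except at V5 33°C/31°C MDT. Tested members had a median of 50.4 to 69.8 reads per library and longer introns 55 to 82.

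**Figure D3:**
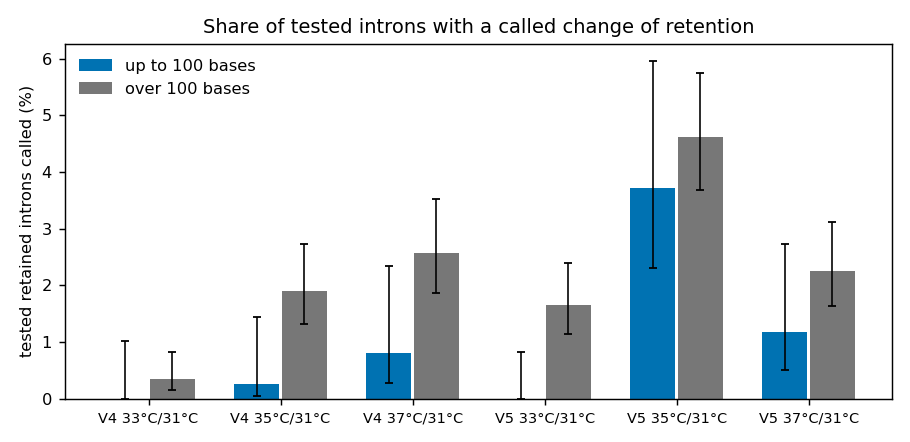
Percentage of tested retained introns called (y axis) in the 6 comparisons with 31°C MDT, for introns of up to 100 bases and longer introns; bars start at 0 and the error bars are Wilson 95% intervals of counting error. The bars of the short introns reach 3.72% at V5 35°C/31°C MDT and stay at or under 1.18% in the other 5.

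The 25 calls came from 22 introns in 22 genes, 3 of them called in 2 comparisons. A length that is a multiple of 3 was found for 11 of the 22, beside 318 of the 557 members tested in any comparison (57.1%). When each library was left out in turn, 8 calls passed in all 6 fits, 7 at V5 35°C/31°C MDT and 1 at V5 37°C/31°C MDT, and 3 passed in none. edgeR kept 20 of the 25 calls, while limma on log2 ratios of reads kept none at an adjusted p of 0.01 (0.0311 to 0.263).

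Few genes with a called intron have a name in the sources used here. Of the 950 genes with a member, 21 were in the part of the study's supplementary gene table that could be read, 19 of them with a description. By the words of those descriptions 1 gene fell under splicing (SR45a) and 1 under heat shock and chaperones (Zm00001d045036, a DnaJ-domain protein, a family of co-chaperones of Hsp70), both with a tested intron and neither with a called one. SR34, an SR protein gene with a called intron at V5 (below), was not counted under splicing by these words. The splicing group therefore does not cover every splicing gene with a member. No gene fell under chloroplast, protein kinases, ubiquitin or transcription, so these groups could not be described.

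Zm00001d009418 was the only gene with a call at both stages. Its 69-base intron on chromosome 8 (63657119 to 63657187, minus strand) was retained at V4 in 50.5, 48.2 and 42.8% of transcripts at 31°C, and in 71.9, 61.2 and 78.7% at 37°C. All 3 libraries at 37°C were above all 3 at 31°C, a rise of 23.4 points (adjusted p = 0.00385, quasi-binomial test). At 33°C and 35°C the V4 means were 48.4% and 57.3%. At V5 the intron was at 65.4, 67.0 and 66.3% at 31°C and rose to 81.3, 79.4 and 77.9% at 35°C, by 13.3 points (adjusted p = 0.00339), and was at 72.6, 77.8 and 82.1% at 37°C (adjusted p = 0.0234). Retention was thus higher at V5 than at V4 already at 31°C, without overlap of the libraries. The V4 call was lost without V4 31°C replicate 3 or V4 37°C replicate 1 or 3 (adjusted p up to 0.0239), and the V5 call without V5 35°C replicate 1 (adjusted p = 0.0127). The mean reads per library were 140 to 383 over the 8 groups.

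The 2 other introns called at V4 37°C/31°C MDT fell. The 89-base intron of Zm00001d036227 on chromosome 6 (77982791 to 77982879, minus strand) was at 51.4, 65.3 and 70.7% at 31°C and at 21.2, 29.4 and 27.9% at 37°C, a drop of 36.3 points from a mean of 62.5% (adjusted p = 0.00385). Its mean stepped down over the MDTs, from 62.5% to 56.1%, 42.6% and 26.2%. At V5 the same intron was at 41.0, 36.7 and 31.7% at 31°C and 28.4, 20.0 and 13.1% at 37°C, a change of −16.0 points with an adjusted p of 0.0501. The 84-base intron of Zm00001d002534 on chromosome 2 (14892589 to 14892672, plus strand) was at 69.4, 69.5 and 78.9% at 31°C and 46.2, 43.7 and 38.5% at 37°C (−29.8 points, adjusted p = 0.00619). At V5 its change at 37°C was −9.6 points (adjusted p = 0.520). The single call at V4 35°C/31°C MDT was the 79-base intron of Zm00001d044704 on chromosome 3 (235439972 to 235440050, plus strand), at 43.8, 44.7 and 47.2% at 31°C and 24.1, 30.6 and 22.5% at 35°C (−19.5 points, adjusted p = 0.00899). At 37°C it was at 36.3, 47.0 and 43.4%, so the 31°C libraries overlapped those at 37°C. With any 1 library left out the changes stayed between −32.2 and −41.8 points for Zm00001d036227, −26.7 and −31.5 points for Zm00001d002534 and −17.9 and −21.9 points for Zm00001d044704. The calls passed in 2, 0 and 1 of the 6 fits, that of Zm00001d044704 without V4 35°C replicate 2 alone (adjusted p 0.00860 to 0.0438). Without V4 31°C replicate 3 or V4 37°C replicate 3 none of the members was called at 37°C, and without V4 31°C replicate 2 it was 1. At 35°C none was called without V4 31°C replicate 1, V4 31°C replicate 3 or V4 35°C replicate 3, and the 1 member called without V4 31°C replicate 2 or V4 35°C replicate 1 was a different intron.

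There were 8 introns that rose at V5 35°C/31°C MDT. The largest change was that of the 95-base intron of Zm00001d017829 on chromosome 5 (207955767 to 207955861, plus strand), at 24.4, 15.0 and 16.9% at 31°C and 56.2, 77.4 and 35.9% at 35°C (37.7 points, adjusted p = 0.00873). The 3 libraries at 35°C were far apart (SD 20.8 points) and had 29.0 reads on average, and the call passed in 2 of the 6 fits that left out a library. Zm00001d047973 carried a 76-base intron on chromosome 9 (146759154 to 146759229, plus strand) at 38.3, 32.4 and 36.5% at 31°C and 64.3, 76.1 and 73.7% at 35°C (35.6 points, adjusted p = 0.00207). The reads on it rose too, from a mean of 35.0 per library at 31°C to 155 at 35°C. The call passed in all 6 such fits.

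In Zm00001d015714, the 92-base intron on chromosome 5 (110432627 to 110432718, plus strand) was at 26.4, 24.4 and 19.7% at 31°C and 49.2, 42.2 and 40.8% at 35°C (20.6 points, adjusted p = 0.00659), but back at 27.5, 20.6 and 25.3% at 37°C. Leaving out any 1 library ended this call (adjusted p 0.0108 to 0.0237). The 67-base intron of Zm00001d009907 on chromosome 8 (88819294 to 88819360, plus strand) was at 24.4, 28.2 and 30.5% at 31°C and 44.5, 51.3 and 45.6% at 35°C (19.4 points, adjusted p = 0.00414). At V4 it was at 26.6, 26.1 and 26.0% at 31°C and 40.5, 43.0 and 47.2% at 35°C, again without overlap, with an adjusted p of 0.0244.

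The 84-base intron of Zm00001d022590 on chromosome 7 (180542230 to 180542313, plus strand) was called at both 35°C and 37°C. It was at 21.9, 17.7 and 17.5% at 31°C, 33.6, 37.5 and 39.0% at 35°C (17.7 points, adjusted p = 0.000532) and 35.2, 48.4 and 45.6% at 37°C (24.0 points, adjusted p = 0.000539). It was the only called intron at V5 whose mean rose at each step, from 19.0% to 29.9%, 36.7% and 43.1%. Both comparisons share the 31°C libraries, and both calls passed with any 1 library left out. At V4 the means were 30.2%, 35.7%, 43.3% and 44.8% and no comparison was called (adjusted p = 0.0409 at 37°C).

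SR34 (Zm00001d040672) encodes an SR protein and was among the genes that the study singled out on these samples. Its 72-base intron on chromosome 3 (57182202 to 57182273, minus strand) was mostly removed, with 9.0, 7.4 and 5.0% retained at V5 31°C. At 35°C it was at 18.9, 19.8 and 20.5%, a rise of 12.6 points (adjusted p = 0.00271), and at 37°C at 17.3, 16.9 and 11.6% (adjusted p = 0.0685). The reads on the event rose from a mean of 80 to 352 per library. At V4 the intron was at 11.5, 5.7 and 12.1% at 31°C and 14.1, 15.9 and 20.0% at 35°C (adjusted p = 0.243). The call at V5 was lost without V5 31°C replicate 2 or 3 (adjusted p up to 0.0117). The remaining risers at V5 35°C/31°C MDT were the intron of Zm00001d009418, described above, and 1 that rose by 11.4 points.

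**Figure D4:**
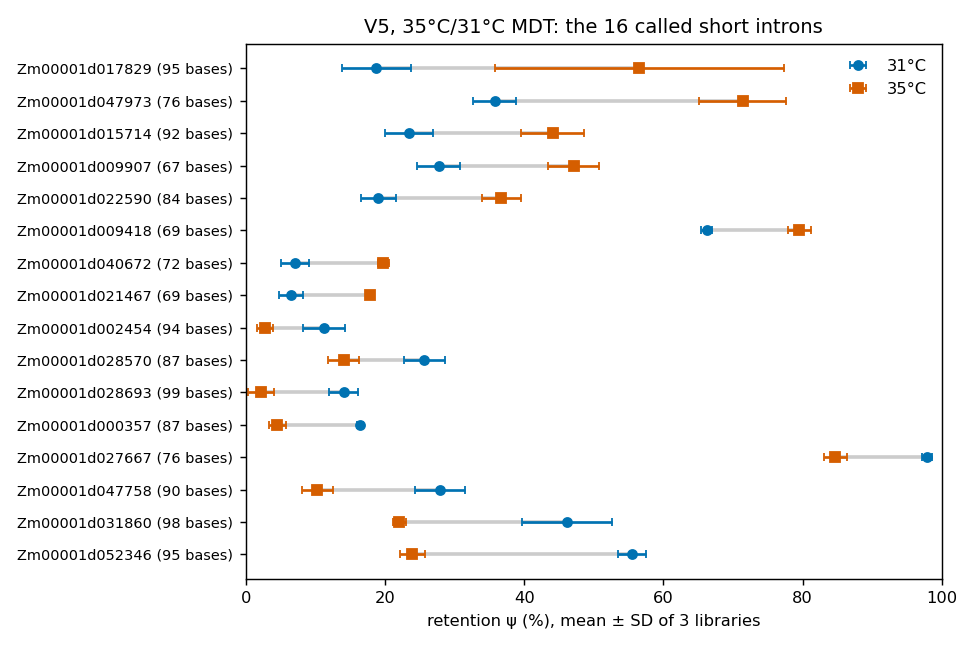
Mean ψ in percent (x axis, error bars SD of 3 libraries) at 31°C (circles) and 35°C MDT (squares) at V5 for the 16 called members, ordered by the change from the largest rise (top) to the largest fall (bottom). Zm00001d017829 at 35°C has the widest error bar (20.8 points), and the changes run from a rise of 37.7 points to −31.6 points.

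The other 8 introns fell at V5 35°C/31°C MDT. The largest drop was in Zm00001d052346, which the study's supplementary table describes as a member of the PAP/OAS1 substrate-binding domain superfamily. Its 95-base intron on chromosome 4 (187727616 to 187727710, minus strand) was at 53.2, 57.1 and 56.2% at 31°C and 24.4, 21.9 and 25.5% at 35°C (−31.6 points, adjusted p = 0.000414). It was at 34.1, 20.2 and 43.3% at 33°C and 22.3, 28.9 and 12.4% at 37°C, where the adjusted p of 0.0101 just missed the threshold. At V4 its mean was lower than at V5 at every MDT, with 27.6, 35.7 and 28.0% at 31°C and 14.3, 11.6 and 16.9% at 33°C, on a mean of 22 and 13 reads per library.

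The 98-base intron of Zm00001d031860 on chromosome 1 (204435418 to 204435515, plus strand) fell from 40.7, 44.3 and 53.3% at 31°C to 21.1, 23 and 22% at 35°C (−24.1 points, adjusted p = 0.000279). At V4 it was at 37.6, 40.5 and 38.8% at 31°C and 23.5, 25.9 and 21.0% at 35°C, a change of −15.5 points without overlap and with an adjusted p of 0.0361. Zm00001d047758 had a 90-base intron on chromosome 9 (141028354 to 141028443, minus strand) at 29.8, 23.8 and 30.1% at 31°C and 11.3, 7.7 and 11.8% at 35°C (−17.6 points, adjusted p = 0.00261). This call was lost without V5 35°C replicate 2 (adjusted p = 0.0164).

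Near-complete retention also changed. The 76-base intron of Zm00001d027667 on chromosome 1 (10616673 to 10616748, minus strand) was at 98.1, 97.1 and 98.5% at V5 31°C and 83.3, 86.5 and 84.3% at 35°C (−13.2 points, adjusted p = 9.15e-05), the smallest adjusted p among the members in the 6 comparisons. It was at 94.4, 93.3 and 94.3% at 33°C and 91.2, 92.5 and 91.3% at 37°C, so that all 9 libraries above 31°C were below all 3 at 31°C. Only 35°C was called (adjusted p = 0.0109 at 37°C). The 87-base intron of Zm00001d000357, on the contig B73V4_ctg48 (43190 to 43276, plus strand), was at 16.1, 16.2 and 16.9% at 31°C and fell to 3.9, 3.8 and 5.9% at 35°C and 5.2, 2.8 and 5.2% at 37°C (−11.9 points, adjusted p = 0.00220, and −12.0 points, adjusted p = 0.00591). At V4 it had a value in only 4 libraries, between 1.3 and 5.4%, and was not tested. The call at 37°C was lost without V5 31°C replicate 1 or 2 or V5 37°C replicate 2 (adjusted p up to 0.0193). The 3 other falling introns changed by −8.4 to −11.8 points.

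At V5 37°C/31°C MDT the 3 further calls were in other genes. The 78-base intron of Zm00001d014977 on chromosome 5 (70825626 to 70825703, minus strand) fell from 65.7, 65.1 and 56.0% to 41.0, 38.2 and 36.5% (−23.7 points, adjusted p = 0.00205). Its mean fell at each step, from 62.3% to 55.9%, 47.6% and 38.6%. The 100-base intron of Zm00001d053189 on chromosome 4 (218980529 to 218980628, minus strand) was at 38.6, 47.8 and 40.6% at 31°C and 16.6, 18 and 21.6% at 37°C (−23.6 points, adjusted p = 0.00860). This call passed in 1 of the 6 fits that left out a library (adjusted p 0.00961 to 0.0536). It was also lost with edgeR, limma, the replicate block and adjustment over all AS types. The 96-base intron of Zm00001d048689 on chromosome 4 (3338139 to 3338234, plus strand) rose from 32.7, 36.8 and 36.5% to 49.9, 53.0 and 47.1% (14.7 points, adjusted p = 0.00833), and was not called in any fit with a library left out. The 5 calls at 37°C became 3 without V5 31°C replicate 1, 1 without V5 31°C replicate 2 and 2 without V5 37°C replicate 2. At 33°C, 1 member was called without V5 31°C replicate 3 or V5 33°C replicate 3.

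**Figure D5:**
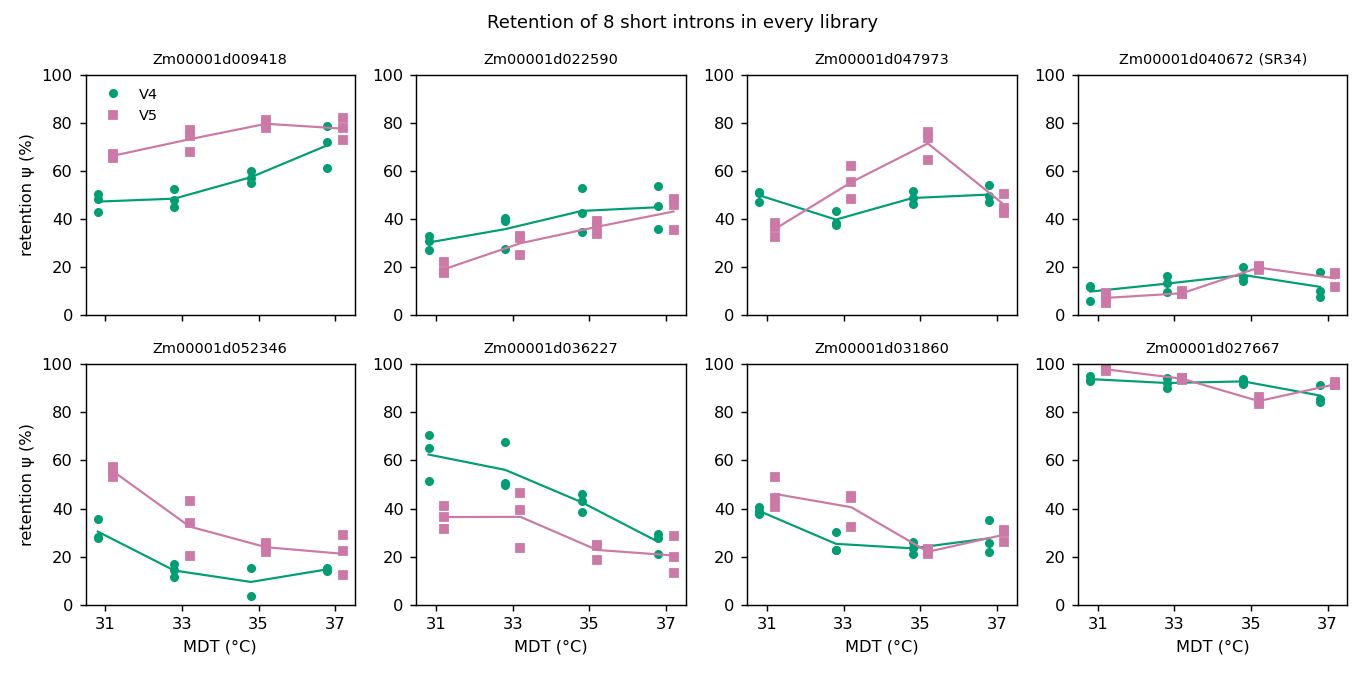
ψ in percent (y axis) of 8 members in every library with a value, against MDT in °C (x axis), at V4 (circles) and V5 (squares); lines join the means and the points of the stages are set slightly apart. The V5 points of Zm00001d047973 peak at 35°C (64.3 to 76.1%) while its V4 points stay between 37.5 and 54.1%, and those of Zm00001d022590 step up with the MDT.

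Retention was also tested over the 4 MDTs together. At V4, 6 of 323 tested members differed (1.86%), beside 3.48% of all tested retained introns, and at V5 24 of 379 (6.33%), beside 9.36%. Zm00001d009418, Zm00001d028570 and Zm00001d042066 were called at both stages. Of the 24 introns at V5, 11 had their highest mean at 31°C and 8 had it at 35°C, while 33°C was highest for 2 and 37°C for 3. In 1 of the 24 the mean rose at each step and in 4 it fell at each step. Of all 177 retained introns called in this test at V5, 58 (32.8%) were highest at 31°C and 58 at 35°C, 22 (12.4%) at 33°C and the other 39 at 37°C, beside 45.8%, 33.3%, 8.33% and 12.5% of the 24 members. Among the 177, 8 rose and 14 fell at each step. At V4 the 6 became 3 without V4 31°C replicate 3.

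Several of these introns were not called in any comparison with 31°C of their stage. The 87-base intron of Zm00001d028570 on chromosome 1 (39412508 to 39412594, minus strand) had at V4 a mean of 47.9% at 31°C and of 24.8%, 25.9% and 29.6% at the higher MDTs (adjusted p = 0.00490 over the 4 MDTs). At V5 it was at 23.0, 25.1 and 28.8% at 31°C and 14.1, 16.3 and 11.8% at 35°C (adjusted p = 0.00220 in that comparison), so it fell at both stages from different levels. In Zm00001d042066, the 64-base intron on chromosome 3 (149524923 to 149524986, minus strand) was highest at 37°C at both stages, with a mean of 37.4% at V4 and 35.9% at V5 beside 25.03% and 23.9% at 31°C (adjusted p = 0.00887 and 0.00182).

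The 90-base intron of Zm00001d009439 on chromosome 8 (64592864 to 64592953, plus strand) fell into a low and a high pair of MDTs at V4. It was at 50.9, 50.6 and 52.0% at 31°C and 46.6, 50.7 and 50.0% at 33°C, but at 65.2, 58.6 and 61.7% at 35°C and 66.8, 66.6 and 64.6% at 37°C (adjusted p = 0.000972). The 80-base intron of Zm00001d043075 on chromosome 3 (188439932 to 188440011, plus strand) was at 23.7, 28.9 and 32.6% at V4 31°C and at a mean of 11.1%, 4.97% and 7.73% at the higher MDTs (adjusted p = 0.00418), on 29 to 58 reads per library. At V5 the 84-base intron of Zm00001d007240 on chromosome 2 (225523361 to 225523444, plus strand) dipped to a mean of 19.3% at 33°C from 25.6% at 31°C and reached 38.6% at 37°C (adjusted p = 9.11e-07).

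The changes at V4 and V5 come from different libraries, including the controls, and their difference was tested for each intron. The 35°C/31°C change of 1 of 336 tested members differed between the stages, beside 1.49% of all tested retained introns. It was the 76-base intron of Zm00001d047973, which rose by 35.6 points at V5 and was at 50.9, 47.2 and 51.2% at 31°C and 48.6, 51.4 and 46.0% at 35°C at V4 (−1.1 points). The changes differed by 36.7 points (adjusted p = 0.00372, quasi-binomial F test). For 33°C/31°C 0 of 341 members were called, beside 0.921%, and for 37°C/31°C 0 of 327, beside 0.579%. An unadjusted p under 0.05 was found for 24 (7.04%) and 30 (9.17%) of these members. The share of all retained introns at that p is not given for this test, so no result is read from these counts. The larger number of calls at V5 than at V4 is not in itself a difference in the changes of single introns.

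Among the 7 genes that the study singled out, a list it chose on these samples, 4 had members, 6 introns in all. SR45a (Zm00001d047847), a splicing regulator with RNA recognition motifs, had introns of 96, 36 and 37 bases. The 96-base intron was listed at 99.2 to 99.9% in the libraries that had a value, at V4 and V5 alike, on a mean of 1350 to 3898 reads. At the other extreme, the 36-base intron was at 0.5 to 1.6% at V4 and 1.7 to 12.7% at V5. At V5 it was at 1.9, 3.5 and 1.9% at 31°C and 2.8, 12.7 and 4.3% at 37°C (adjusted p = 0.400, quasi-binomial test). The study's sequence alignment shows an SR45a coding sequence in W22 that lacks 36 bases present in B73. Bases missing from the W22 genome would be counted as a removed intron. Whether the 36-base intron is that stretch was not tested, so its low ψ may not reflect splicing. The 37-base intron overlaps the 36-base one and had a value in 2 libraries of V5, at 96.0 and 97.4%. Of these introns only the 36-base one at V5 could be tested, and it was not called in any of the 3 comparisons.

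CAU1 (Zm00001d004109) is a homolog of an Arabidopsis protein arginine methyltransferase. Its 83-base intron was at 69.2, 86.5 and 81.1% at V4 31°C and 62.3, 52.4 and 60.4% at 37°C, and at V5 at 64.5, 70.7 and 92.0% at 31°C and 36.6, 42.8 and 30% at 35°C. These groups did not overlap, the mean reads per library were 17 to 26, and none of the 6 comparisons was called (adjusted p = 0.0332 for the V5 change of −39.3 points). The 79-base intron of SPFcc1-like (Zm00001d048415) was at 95.1 to 97.8% wherever it had a value. SRP, SCL33 and HSFTF9 had no member.

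The limit of 100 bases divides a continuous range of lengths. At V5, 14 introns were 100 bases long, with a median of the mean ψ of 32.3%, and 9 introns were 1 base longer, with a median of 6.76%. The 100-base side held introns at both extremes, such as Zm00001d038972 (0.308% on average over 12 libraries) and Zm00001d021000 (94.4%). The introns looked at on the other side were all low, with Zm00001d044327 at 3.4%, Zm00001d002006 at 0.14% and Zm00001d036831 at 0.95%.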

How the data were processed

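Reads had been filtered by the authors with SOAPnuke v1.5.2, aligned with HISAT2 v2.0.4 and counted with rMATS v3.2.5. The deposited counts are raw inclusion and skipping reads. The deposited fraction is ψ, for which the authors divided the reads by effective lengths, printed here in percent. Columns were assigned by name, which left 5 columns of single samples unused. For replicates 2 and 3 of V4 31°C, the inclusion count was worked back from ψ and the skipping count and rounded, and for V4 33°C ψ was worked out from the reads. In V4 31°C replicate 1 the same recovery gave the deposited count in 464 of 506 members.

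Events needed a mean of 10 reads and values in 2 of 3 libraries per group. The quasi-binomial dispersion was moderated across events as in limma 3.58.1 and not allowed below 1. P-values were adjusted by Benjamini-Hochberg over all tested retained introns. Stage differences were tested by an F test in the quasi-binomial model, comparing fits with and without a separate MDT change per stage. edgeR 4.0.16 and limma served as alternatives, in R 4.3.3, with Python 3.11.15 otherwise. The script was tested on simulated data. Tests measure the spread between replicate libraries and intervals cover counting error only. PCR reads are not independent molecules.

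Called introns were named up to 12 per comparison by size of change, with the 6 smallest adjusted p per stage over the 4 MDTs and the study's 7 genes. Members and lists were chosen with earlier results of these data known.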

Additional observations from a re-analysis of the deposited data

Results flagged for a closer look

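The 76-base intron of Zm00001d047973 was the only member whose 35°C/31°C MDT change differed between the stages. The change was larger at V5 than at V4 by 36.7 points (35.6 against −1.1 points, adjusted p = 0.00372, quasi-binomial F test on 3 libraries per group). The groups also differed at 31°C, where the V5 libraries lay at 32.4 to 38.3% and the V4 libraries at 47.2 to 51.2%, and at V5 its reads rose from a mean of 35.0 to 155 per library. Whether the number of reads bears on the difference was not tested.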

How the results depend on the processing

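The counts of called members, which are small, depended on the setting. At an adjusted p of at most 0.05 the called members were 1, 6 and 17 at V4 33°C, 35°C and 37°C/31°C MDT and 9, 33 and 23 at V5. They were 15 at V4 and 52 at V5 over the 4 MDTs, and 5 and 1 for stage differences at 35°C and 37°C. For these last 4 counts the share of all retained introns at 0.05 is not given. Adjustment over all 5 AS types gave 0 at V4 35°C and 3 at V5 37°C. Without a minimum of reads V4 35°C gave 0. With values required in all 3 libraries the counts were 1, 3 and 7 at V4 and, at V5 33°C, 35°C and 37°C, 2, 23 and 13. limma on log2 ratios called 0 at V4 35°C, V4 37°C, V5 35°C and V5 37°C. edgeR called 2 at V4 35°C and 2 at V5 33°C. When all 12 libraries shared the spread, V4 35°C, V4 37°C and V5 37°C gave 0, 6 and 10. The cause of these differences was not tested. The share of all retained introns under these other filters and models is not given. No result about short introns as such is therefore read from the counts.

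No pair of same-numbered libraries had a correlation of deviations over 0.1 (−0.048 to 0.081 at V4 and −0.031 to 0.057 at V5, beside −0.080 to 0.063 and −0.072 to 0.054 for other pairs), so the libraries were treated as sharing only a number. As a hint from the data, not the design, 11 of 12 libraries at V5 and 3 of 12 at V4 correlated best with their own number. The main tests had no term for the replicate number, so any structure shared by number at V5 was not taken into account. With a replicate block the counts were 1, 3 and 6 at V4 33°C, 35°C and 37°C, and 1 and 3 at V5 33°C and 37°C. At V5 35°C the block gave 23 called members, beside 16 without it.

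With 1 library left out the counts ran from 0 to 1 at V4 35°C, 0 to 3 at V4 37°C, 0 to 1 at V5 33°C, 11 to 15 at V5 35°C and 1 to 5 at V5 37°C, and from 3 to 7 at V4 and 18 to 27 at V5 over the 4 MDTs. A fit with 2 libraries in a group pools the spread across introns.

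With 1 library left out the 25 single calls kept their direction in all 150 refits and their call in 92. The 9 other settings at an adjusted p of 0.01 bear on the call alone, since they reuse the same difference of ψ, and 183 of 225 calls were kept. Adjustment over all AS types kept 20 of the 25, edgeR 20, no minimum of reads 24, the shared spread 22, the replicate block 22 and limma 0. The median ψ of the members changed at V5 33°C/31°C MDT by 0.40 points with at least 20 reads and by 0.62 points as a mean over introns, and at V5 35°C/31°C MDT by −2.23 points with at least 20 reads (p = 0.1, exact permutation test, the smallest possible). At V4 33°C/31°C and V5 37°C/31°C MDT it changed by −3.91 and −1.70 points with at least 20 reads, and at V5 37°C/31°C MDT by −1.53 points as a mean over introns, each with p = 0.1 in the exact permutation test and 0.2, 0.2 and 0.6 after adjustment.

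The difference between members and longer introns reversed without the length correction (−18.1 points at V4, −19.4 at V5). It was also negative, by settings chosen after seeing the data, over introns with a value in 6 or more libraries (−0.17 and −3.83 points) and over every listed intron (−1.50 and −3.65 points). With the effective length that reads of 50 bases would give, 49 bases, it was 9.26 and 8.58 points. Depth limits the many members with few reads or missing values, for which a change was not detectable.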
